A study of Mus musculus with 16 samples.

Results

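Noncoding RNAs and snoRNA host transcripts were followed between polysomes and unfractionated RNA of perfused mouse liver. The listed genes were Snhg1, Snhg3, Snhg6, Snhg8, Snhg12, Gas5, Neat1, Malat1, Meg3 and H19, and every probe set that the platform annotation gave to exactly 1 of them was taken. This gave 33 of the 45101 probe sets, for 9 of the 10 genes, while 18194 genes in all have a probe set of their own. H19 had no such probe set, because the annotation gives its probe set to Mir675 as well. A shared probe set was left out for Snhg8 (shared with Snora24) and for Gas5 (shared with Snord47) too. The genes were listed because several of them are the lowest in polysome relative to unfractionated RNA, so the difference between the fractions is given below as a description, without a test.

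Livers came from mice aged 3 to 6 months. The labels describe them as Alb/Cre Perk-/- (liver knockout) and wild-type littermates (Perk+/+). Perk is the gene of an endoplasmic reticulum kinase that slows translation initiation under stress. An albumin-driven Cre acts in hepatocytes, so other liver cells keep the gene. Single-pass perfusion of livers of each genotype used buffer at 0.1 mM CaCl2, either with tBuHQ, a di-tert-butylhydroquinone that blocks calcium uptake into the endoplasmic reticulum, or without it (untreated). The labels name different isomers of it. RNA came from polysome fractions of a sucrose gradient (20 to 47%) or, as unfractionated RNA, from the detergent-containing supernatant of the homogenate. The sources used here do not state whether nuclei had been removed from that supernatant. The design held 8 groups of 2 arrays. Each array held RNA pooled from 2 livers, and the labels call the 2 arrays biological replicates.

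Small nucleolar RNAs (snoRNAs) guide chemical modification of ribosomal RNA, and most mammalian ones are cut from introns of host transcripts. Some hosts encode proteins. In others, such as the Snhg genes and Gas5, the spliced exons encode no known conserved protein, and several such exon RNAs are known to be bound by ribosomes and degraded by nonsense-mediated decay. Neat1 is the scaffold of nuclear paraspeckles, Malat1 is kept in nuclear speckles, and Meg3 is an imprinted RNA expressed from the maternal allele.

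Many snoRNA hosts and ribosomal protein genes start transcription inside a stretch of pyrimidines, known as a terminal oligopyrimidine tract, and the annotated starts of the hosts are shown for that reason. The sequences are from RefSeq (GRCm38.p6), on the transcribed strand, 30 bases before and 30 bases from the annotated start. Capitals mark an unbroken run of at least 5 C or T letters that touches the last 5 bases before the start or the first 5 bases from it.
Gas5: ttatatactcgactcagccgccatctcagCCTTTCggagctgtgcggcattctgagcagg
Snhg8: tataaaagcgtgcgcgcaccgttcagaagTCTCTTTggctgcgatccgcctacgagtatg
Snhg12: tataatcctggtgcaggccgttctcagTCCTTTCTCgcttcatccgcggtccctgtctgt
Snhg3: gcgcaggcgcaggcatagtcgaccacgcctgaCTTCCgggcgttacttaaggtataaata
Snhg1: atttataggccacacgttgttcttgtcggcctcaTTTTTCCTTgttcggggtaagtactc
The windows lie at chr1:161035136-161035195 (plus strand) for Gas5, chr3:123508307-123508366 (minus) for Snhg8, chr4:132308648-132308707 (plus) for Snhg12, chr4:132353657-132353716 (minus) for Snhg3 and chr19:8723457-8723516 (plus) for Snhg1. A further Gas5 start, with its window at chr1:161034571-161034630, held no such run, so 5 of 6 annotated starts of the 5 hosts held one. Of all 32851 promoters in the same table, 31.4% did. The run is 6 letters long in Gas5, 7 in Snhg8, 9 in Snhg12, 5 in Snhg3 and 9 in Snhg1. In Gas5, Snhg8 and Snhg12 it spans the annotated start itself, whereas it begins at base 3 of the transcript in Snhg3 and at base 5 in Snhg1. The search covered the transcribed strand, and a match describes these letters alone. No sequence was at hand for Snhg6, Neat1 and H19. Beyond the hosts, the annotated start of Malat1 held no such run. For Meg3 the start at chr12:109540996 held a run of 5 letters, and the start at chr12:109545398 held none.

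In the same build the annotation places each listed gene as a long noncoding RNA gene. Snhg1 lies at chr19:8723487-8726326, Snhg3 at chr4:132351933-132353686, Snhg6 at chr1:9942025-9944118, Snhg8 at chr3:123507552-123508336 and Snhg12 at chr4:132308678-132311024. Gas5 lies at chr1:161034601-161038539, Neat1 at chr19:5824708-5845480, Malat1 at chr19:5795690-5802672 and Meg3 at chr12:109540996-109571729. Snhg3 and Snhg12 are therefore close neighbours on chromosome 4, and Neat1 and Malat1 on chromosome 19.

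The values are the deposited linear signals, on arrays that all had the same trimmed mean, so each difference between fractions is relative to the other RNAs of the array. Fewer cells of a type and less RNA per cell cannot be told apart in these bulk samples. Differences were computed as log2(signal + 16), which understates those of dim probe sets, and 27022 probe sets whose mean signal reached the 40th percentile were tested. Of the 33 member probe sets 28 passed this filter, with at least 1 for each of the 9 genes. The other 5 (1 of Snhg1 and 4 of Meg3) are not part of the counts that follow, and had mean signals of 5.57 to 11.2, below the highest signal of an absent spike-in RNA (15.1).

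Several arrays need naming before the results. Among unfractionated arrays, the first knockout tBuHQ array and both untreated wild-type arrays stood apart. They correlated with each other at 0.973 to 0.975 and with the other 5 at 0.948 to 0.964. The summed signal of 8 stellate cell markers was 3863 to 4166 on these and 1530 to 3640 on the remaining 5, and that of 8 endothelial markers 1994 to 2299 and 844 to 1246. Hepatocyte markers were above the absent level on every array (5 of 5 measured), with sums of 67033 to 73958 on the 3 and 65212 to 86672 on the other 5. One polysome array, the second of tBuHQ-treated wild-type liver, had a 3' to 5' signal ratio of Gapdh of 5.60, and the remaining 15 had 0.735 to 0.859. The signal of Eif2ak3, the gene of PERK, was 26.3 to 49.2 on knockout and 46.1 to 216 on wild-type arrays. Finally, each of the 16 columns of the authors' deposited z score table held the values of an array titled with the opposite treatment. Treatment follows the titles here, and under the column names of that table each tBuHQ difference below would change its sign. The groups called tBuHQ-treated and untreated would then also trade names in the genotype comparisons and in the fraction values per condition.

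The first comparison was between polysomes and unfractionated RNA. Averaged over the 4 conditions, all 28 member probe sets were lower in polysomes, by a median log2 difference of -1.17, while the median of all probe sets was -0.01. On the scale of signal + 16, Snhg8, Neat1, Snhg6, Gas5 and Malat1 were 6.91-fold to 8.95-fold lower in polysomes by their brightest probe sets. By mean signals without a pseudocount, Snhg6 and Snhg8 were each 11.6-fold, Neat1 9.58-fold, Gas5 8.19-fold and Malat1 6.56-fold lower. Meg3 was 2.28-fold and Snhg1 1.98-fold lower. Snhg12 and Snhg3 were at least 2.56-fold and 2.05-fold lower, lower bounds because their polysome signals lay at or below the absent level on 4 and 6 of 8 arrays. At or under a log2 difference of -1 lay 18 of the 28, against 1.5% of all probe sets, and for 13 of the 28 all 8 polysome arrays were below all 8 unfractionated arrays, against 1.45%. With a pseudocount of 64, 9 of the 28 lay at or under -1, against 239 of all 27022. Of the 10 lowest of the 27022 probe sets 6 were member probe sets. The genes were listed for this difference, so nothing is read from these counts. The filter on the mean of all 16 arrays (12.3) also favours this sign for dim probe sets. Polysome means of 2.47 to 11.9 lay under it for Gas5 1424843_a_at and 1436222_at, Malat1 1427285_s_at and 1436202_at, Snhg1 1454703_x_at and Meg3 1452905_at. They passed through their unfractionated signal alone and are part of these counts. The member probe sets next to the -1 mark were Gas5 1436222_at at -1.03 on the one side and Snhg1 1433674_a_at at -0.98 on the other.

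**Figure D1:**
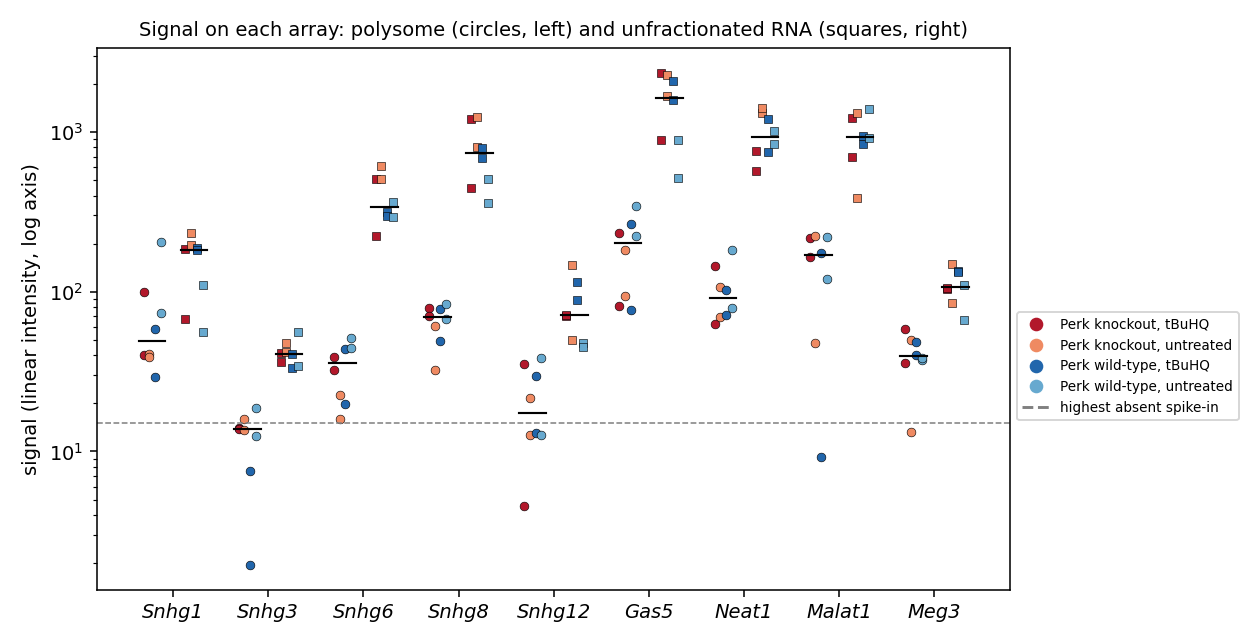
Signal (linear intensity on a log axis) of the brightest probe set of each gene on every array, with polysome arrays as circles on the left and unfractionated arrays as squares on the right of each gene; colours give genotype and treatment, black lines the median of 8 arrays, and the dashed line the highest absent spike-in signal (15.1). The circles lie below all squares for 8 of the 9 genes, and only for Snhg1 do they overlap.

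Among the snoRNA hosts, Snhg8, which hosts an H/ACA snoRNA, read 32.1 to 83.7 with a median of 69.1 on the 8 polysome arrays, against 358 to 1232 with a median of 736 on the 8 unfractionated arrays. The highest polysome array was thus well below the lowest unfractionated one. Its log2 difference was -3.16 ± 0.20 (SE from limma, 8 against 8 arrays), the fourth lowest of the 27022 probe sets.

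Snhg6, a host of a C/D snoRNA, read 15.9 to 51.0 (median 35.7) on polysome arrays and 224 to 609 (median 338) on unfractionated arrays. Its log2 difference of -3.01 ± 0.17 was the sixth lowest of all, and its groups did not overlap either.

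Gas5, whose introns hold a cluster of C/D snoRNAs and whose exon RNA was first found in growth-arrested cells, was measured by 4 tested probe sets. The brightest, 1419291_x_at, read 77.1 to 343 (median 202) on polysome arrays and 517 to 2349 (median 1634) on unfractionated arrays, a log2 difference of -2.93 ± 0.28. A second one, 1449410_a_at, gave almost the same picture with 86.6 to 327 (median 170.0) and 514 to 2158 (median 1581), and -2.84 ± 0.23. These ranks were 8 and 9 from the lowest. The other two, 1424843_a_at (-1.04 ± 0.20) and 1436222_at (-1.03 ± 0.18), were dim, with unfractionated medians of 34.9 and 19.1, and their polysome medians of 7.06 and 1.07 lay below the absent level, so these values understate the difference.

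Snhg12 and Snhg3 were dimmer hosts. Snhg12 read 4.58 to 38.6 (median 17.4) on polysome arrays and 45.3 to 147 (median 71.2) on unfractionated arrays, with a log2 difference of -1.36 ± 0.23. Snhg3, the neighbour of Snhg12, read 1.94 to 18.6 (median 13.8) and 33.3 to 56.0 (median 41.0), with -1.04 ± 0.15. For both genes the fractions did not overlap, but 4 of 8 polysome arrays of Snhg12 and 6 of 8 of Snhg3 were at or below the absent level, so both values are lower bounds and are not ranked against those of brighter hosts. The mean signals themselves, without a pseudocount, were 21.1 on polysome and 79.6 on unfractionated arrays for Snhg12, and 12.3 and 41.4 for Snhg3.

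Snhg1, a host of several C/D snoRNAs, was the exception to the separation. Its brightest probe set 1433674_a_at read 29.3 to 205 (median 49.4) on polysome arrays and 56.0 to 232 (median 183) on unfractionated arrays, a log2 difference of -0.98 ± 0.24 with overlapping fractions. None of its 4 tested probe sets had all polysome arrays below all unfractionated arrays, and their differences ran from -1.15 to -0.45. The array that overlapped most was the first untreated wild-type polysome array, at 205.

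Of the nuclear RNAs, Neat1 read 63.1 to 182 (median 91.1) on polysome arrays and 570 to 1406 (median 926) on unfractionated arrays by probe set 1428083_at. This difference of -3.08 ± 0.19 was the fifth lowest, and the fractions were well apart. The second Neat1 probe set, 1442881_at, gave 22.3 to 54.5 (median 30.5) and 19.0 to 56.7 (median 42.3), with -0.15 ± 0.18, so the 2 probe sets of Neat1 disagree. The cause of the disagreement was not tested.

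Malat1 was covered by 7 tested probe sets, whose differences ran from -2.79 ± 0.38 (1418188_a_at) to -0.86 ± 0.23 (1436202_at). By the brightest, Malat1 read 9.19 to 225 (median 169.9) on polysome arrays and 387 to 1401 (median 929) on unfractionated arrays. In 4 of the 7 all polysome arrays were below all unfractionated arrays. The lowest polysome value, 9.19, came from the second wild-type tBuHQ array, which also had the high 3' to 5' ratio of Gapdh.

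For Meg3 the brightest probe set, 1439380_x_at, read 13.2 to 58.8 (median 39.4) on polysome arrays and 66.9 to 149 (median 107) on unfractionated arrays, with no overlap and a log2 difference of -1.19 ± 0.18. Its 7 tested probe sets ran from -1.19 to -0.04, and only that one separated the fractions. The unfractionated medians of the other 6 lay between 31.9 and 64.4.

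**Figure D2:**
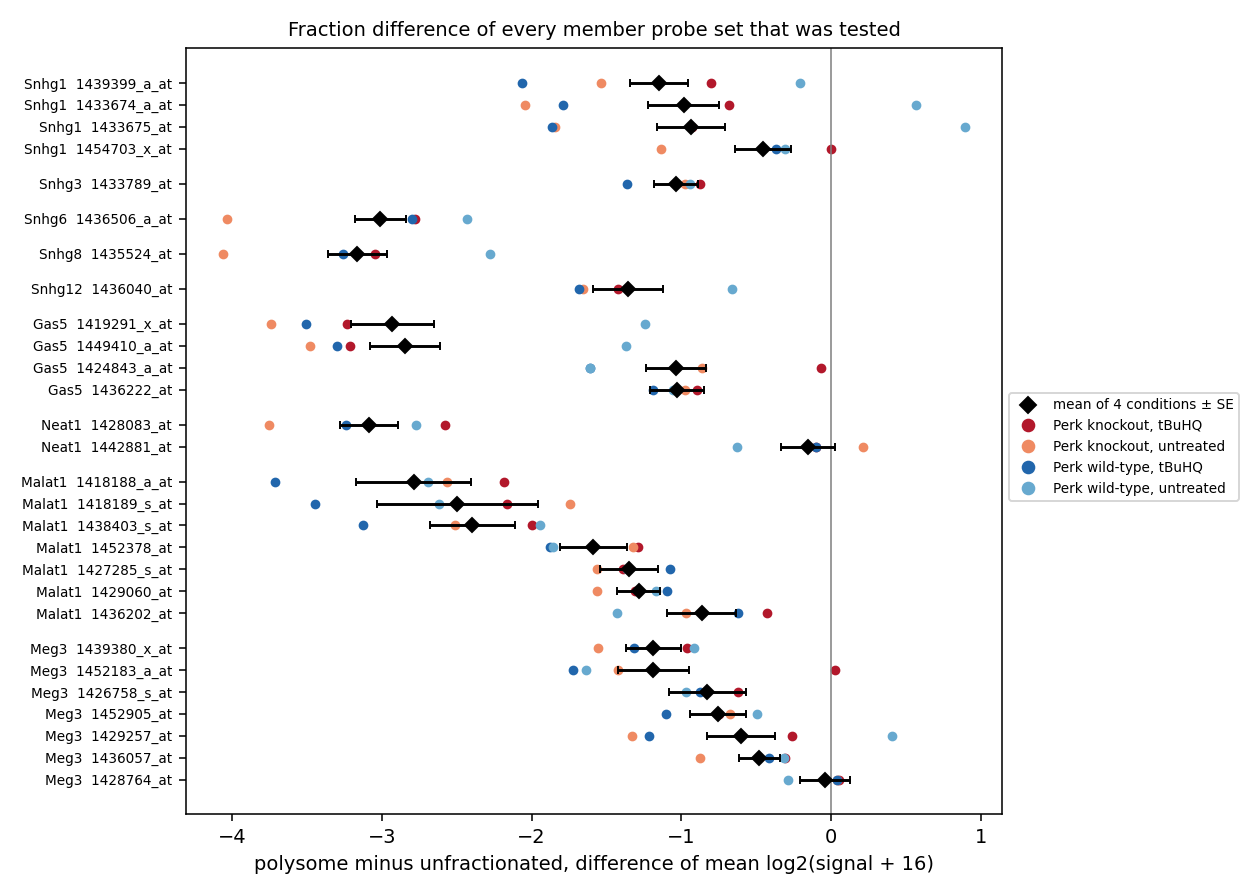
Polysome minus unfractionated difference of mean log2(signal + 16) for the 28 tested member probe sets, grouped by gene; black diamonds are the mean of the 4 conditions with limma's SE, and coloured points the 4 conditions, each 2 against 2 arrays. All diamonds lie below 0, those of Snhg8, Snhg6, 1 of the 2 Neat1 and 2 of the 4 Gas5 probe sets lie near -3, and untreated wild-type liver is the condition nearest to 0 for the Gas5, Snhg1, Snhg6, Snhg8, Snhg12 and Meg3 probe sets of highest signal.

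The size of the difference varied between conditions. At or under -1 lay 12 of 28 member probe sets in tBuHQ-treated knockout liver (background 2.14% of all probe sets), 19 in untreated knockout liver (3.08%), 22 in tBuHQ-treated wild-type liver (5.01%) and 15 in untreated wild-type liver (3.6%). Gas5 1419291_x_at had log2 differences of -3.23 in tBuHQ-treated knockout, -3.74 in untreated knockout, -3.51 in tBuHQ-treated wild-type and -1.24 in untreated wild-type liver (SE 0.55 each). Snhg1 1433674_a_at had -0.68, -2.04, -1.79 and 0.57 in the same order of conditions (SE 0.48 each), and the last of these became -0.08 without the first untreated wild-type polysome array. Both hosts were thus nearest to 0 or above it in untreated wild-type liver, whose unfractionated arrays are 2 of the 3 that stood apart. Snhg8 had -3.05, -4.06, -3.26 and -2.28 in that order (SE 0.40), and Snhg6 -2.78, -4.03, -2.80 and -2.43 (SE 0.34). Neat1 had -2.58, -3.75, -3.24 and -2.77 (SE 0.39), and Malat1 1418188_a_at -2.18, -2.56, -3.71 and -2.69 (SE 0.77), the third of which became -2.25 without the array of high 3' to 5' ratio. Snhg8 and Snhg6 were thus nearest to 0 in untreated wild-type liver as well. The untreated knockout livers gave the lowest value for Gas5, Snhg1, Snhg8, Snhg6 and Neat1, but not for Malat1. How these differences changed with treatment or genotype was not tested, since it uses the arrays that chose the genes.

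The next question was whether tBuHQ changed these RNAs in liver that has PERK. In unfractionated wild-type RNA, 0 of the 28 member probe sets passed an adjusted p of 0.05 in limma, against 2.22% of all probe sets, and 6 of 28 had an unadjusted p under 0.05, against 17.4% of all. The lowest adjusted p was 0.122. Gas5 1449410_a_at read 1986 and 1452 with tBuHQ and 836 and 514 without it, a log2 difference of 1.35 ± 0.47 (limma, adjusted p = 0.141). Snhg1 1433675_at read 130.0 and 122 with tBuHQ and 67.4 and 19.6 without it, a difference of 1.38 ± 0.46 (limma, adjusted p = 0.122). The arrays of these Gas5 and Snhg1 probe sets did not overlap between the groups, as for 11 of 28 member probe sets with higher signal after tBuHQ, against 22.2% of all, and the lower group is the pair of untreated wild-type arrays that stood apart. A dim probe set, Snhg1 1454703_x_at, was lower with tBuHQ, at 20.5 and 15.2 against 26.8 and 25.7 without it. Malat1 1438403_s_at read 231 and 610 with tBuHQ and 1056 and 989 without it, with -1.40 ± 0.56 (limma, adjusted p = 0.209). The higher group is here the pair that stood apart. This probe set read 975 to 1056 on the 3 such arrays and 231 to 975 on the other 5 unfractionated arrays.

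In wild-type polysome RNA 0 of 28 passed in limma, against 0.0074% of all probe sets, and 5 of 28 had an unadjusted p under 0.05, all with lower signal after tBuHQ, against 7.92% of all. Malat1 1438403_s_at read 35.5 and 23.4 with tBuHQ and 477 and 132 without it, a log2 difference of -2.58 ± 0.56 (limma, adjusted p = 0.332). Without the first tBuHQ array, which leaves only the one with the high 3' to 5' ratio, this probe set passed (-2.78, limma, adjusted p = 0.0213), and so did Malat1 1418188_a_at (-2.82, limma, adjusted p = 0.0193), with 3.8% of all probe sets. On that probe set the 2 tBuHQ arrays themselves read 174 and 9.19, and the untreated ones 219 and 119. Of the other 4 with an unadjusted p under 0.05, 3 belonged to Snhg1 (-1.40 to -1.28) and 1 to Meg3 (-1.22).

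In knockout liver tBuHQ gave no call either. In unfractionated RNA 0 of 28 passed in limma, against 0% of all probe sets, and 2 of 28 had an unadjusted p under 0.05, against 7.32% of all. These were Neat1 1428083_at, which read 756 and 570 with tBuHQ and 1311 and 1406 without it (-1.03 ± 0.39, limma, adjusted p = 0.583), and Snhg1 1433675_at (-0.99 ± 0.46). Without the 3 arrays that stood apart the values were -1.23 for Neat1 and -0.55 for Snhg1. The single tBuHQ array left was then assumed to vary like the other groups. Gas5 1449410_a_at read 895 and 2158 with tBuHQ and 2109 and 1711 without it, so that the 2 treated arrays lay on both sides of the untreated ones. In polysome RNA 0 of 28 passed, against 0% of all, and 0 of 28 had an unadjusted p under 0.05, against 5.11% of all (limma).

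**Figure D3:**
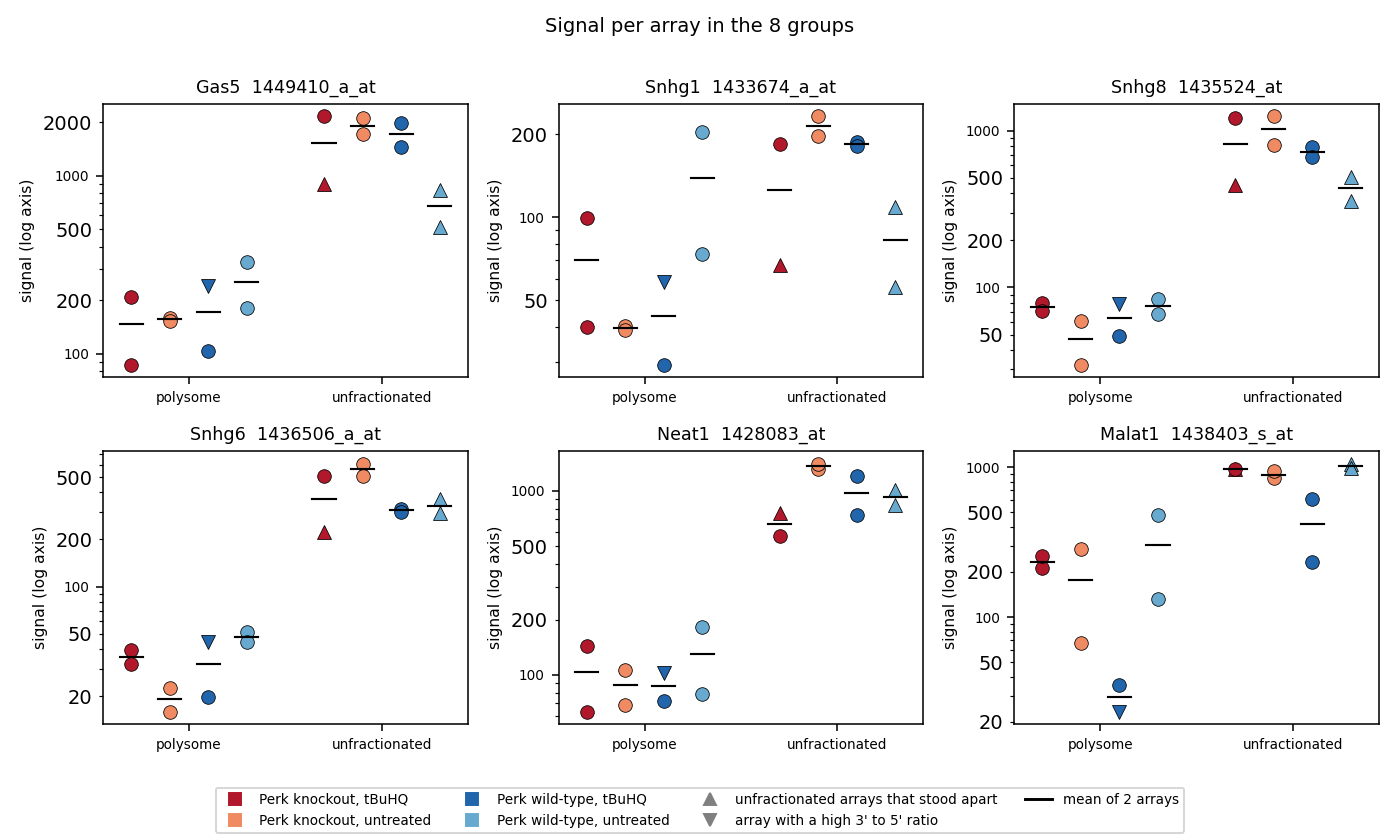
Signal (log axis) on each array of 6 member probe sets in the 8 groups, with polysome groups on the left and unfractionated groups on the right of each panel; black lines are the mean of 2 arrays, upward triangles the 3 unfractionated arrays that stood apart, and the downward triangle the array with the high 3' to 5' ratio of Gapdh. The upward triangles are the lowest unfractionated points of Gas5, Snhg1 and Snhg8. They are not the lowest ones of Neat1 and lie at the top of those of Malat1.

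Between the genotypes, the untreated unfractionated RNA was compared next. Of 28 member probe sets 0 passed in limma, against 3.99% of all probe sets, and 6 had an unadjusted p under 0.05, all of snoRNA hosts and all with higher signal in knockout liver, against 20.3% of all. Snhg1 1433675_at read 132 and 173 in knockout and 67.4 and 19.6 in wild-type liver, a log2 difference of 1.62 ± 0.46 (limma, adjusted p = 0.0591). Gas5 1449410_a_at read 2109 and 1711 in knockout and 836 and 514 in wild-type liver, with 1.51 ± 0.47 (limma, adjusted p = 0.0813). Snhg8 read 1232 and 810 in knockout and 507 and 358 in wild-type liver, with 1.20 ± 0.40 (limma, adjusted p = 0.0997). For each of these probe sets the groups did not overlap, as for 11 of 28 member probe sets with higher signal in knockout liver, against 23.7% of all. Dim probe sets of Gas5 and Snhg1 went the other way, also without overlap. Gas5 1424843_a_at read 21.4 and 30.7 in knockout and 85.6 and 34.4 in wild-type liver. Snhg1 1454703_x_at read 22.7 and 18.6 in knockout and 26.8 and 25.7 in wild-type liver. Leaving out either knockout tBuHQ unfractionated array brought Snhg1 1433675_at and Snhg8 past the threshold, and leaving out either wild-type tBuHQ polysome array brought Snhg1 1433675_at and Gas5 1449410_a_at past it, with adjusted p of 0.0293 to 0.0486 in limma. Of all probe sets 5.38% and 5.44% passed without one or the other of these unfractionated arrays, and 7.84% and 7.85% without one or the other of the polysome arrays. None of those 4 arrays enters this contrast, so its differences stayed as they were and the shared estimate of the spread moved.

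Probe sets of the same hosts read low on all 3 arrays that stood apart. Gas5 1449410_a_at read 514 to 895 on them and 1452 to 2158 on the other 5 unfractionated arrays. Snhg8 read 358 to 507 and 682 to 1232, and Snhg1 1433674_a_at 56.0 to 109 and 181 to 232. The dim Gas5 1424843_a_at was not low there, at 34.4 to 85.6 on the 3 and 13.6 to 41.3 on the other 5. Neat1 1428083_at read 756 to 1012 on the 3 and 570 to 1406 on the other 5, and Snhg3 34.3 to 56.0 and 33.3 to 47.7, so those ranges overlap. The first knockout tBuHQ array thus read like the untreated wild-type pair for Gas5 1449410_a_at, Snhg8 and Snhg1 1433674_a_at, although it shares neither genotype nor treatment with it. The stellate and endothelial marker sums given above were high on the same 3 arrays. Pancreatic acinar markers (5 of 6 on the array) summed to 58.6 to 131 on the 3 and to 105 to 2499 on the other 5. The second knockout tBuHQ array had an acinar sum of 105 and the highest Gas5 1449410_a_at signal, 2158. In unfractionated RNA the median log2 difference of the acinar markers was 2.35 for tBuHQ in wild-type liver, 2.03 between untreated knockout and wild-type liver and -4.43 for the difference of the tBuHQ effects, with the signs of Gas5 1449410_a_at, Snhg8 and Snhg1 1433674_a_at. In polysome RNA the same medians were 1.43, 1.46 and -2.81. Snhg1 1433674_a_at had the opposite signs there, at -1.28, -1.34 and 1.81. In the difference of the tBuHQ effects in unfractionated RNA 1 of the 5, Sycn, passed (-2.89 ± 0.71, limma, adjusted p = 0.0394). The part of these markers in the values of the hosts was not tested. Without the 3 arrays no untreated wild-type unfractionated array is left, so this contrast could not be fitted.

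In untreated polysome RNA 0 of 28 passed in limma, against 0.0037% of all probe sets, and 6 had an unadjusted p under 0.05, all with lower signal in knockout liver, against 5.47% of all. Snhg1 held 4 of the 6. Its probe set 1433674_a_at read 40.5 and 39.1 in knockout and 205 and 74.0 in wild-type liver, with -1.34 ± 0.48 (limma, adjusted p = 0.773). Snhg6 read 22.5 and 15.9 in knockout and 51.0 and 44.2 in wild-type liver, with -0.86 ± 0.34 (limma, adjusted p = 0.841). For Snhg1 1433674_a_at and Snhg6 the sign in polysomes was thus opposite to that in unfractionated RNA, where Snhg6 read 609 and 509 in knockout and 362 and 294 in wild-type liver (0.74 ± 0.34, limma, adjusted p = 0.235). Neither sign passed the threshold. The dim Snhg1 1454703_x_at was lower in untreated knockout liver in both fractions.

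With tBuHQ in both genotypes, 0 of 28 passed in limma in unfractionated RNA, against 0.0037% of all probe sets, and 2 had an unadjusted p under 0.05, against 6.41% of all. They were Malat1 1438403_s_at, at 975 and 975 in knockout and 231 and 610 in wild-type liver (1.33 ± 0.56), and Meg3 1452183_a_at (-1.20 ± 0.47). The brightest Malat1 probe set, 1418188_a_at, overlapped between the genotypes, at 1217 and 698 in knockout and 845 and 938 in wild-type liver. In polysome RNA 0 of 28 passed, against 0.0037% of all, and 5 had an unadjusted p under 0.05 in limma, all with higher signal in knockout liver, against 8.15% of all. Malat1 1438403_s_at read 213 and 254 in knockout and 35.5 and 23.4 in wild-type liver, with 2.46 ± 0.56 (limma, adjusted p = 0.527). Malat1 1418188_a_at read 166 and 218 in knockout and 174 and 9.19 in wild-type liver, with overlap. Without the first wild-type tBuHQ polysome array 3 Malat1 probe sets passed, with log2 differences of 1.77 to 3.03 and adjusted p of 0.0105 to 0.0254 in limma. In that setting 4.4% of all probe sets passed.

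Whether tBuHQ acted differently in the 2 genotypes was tested as the difference of the 2 effects, knockout minus wild-type. In unfractionated RNA 0 of 28 passed in limma, against 3.09% of all probe sets, and 6 had an unadjusted p under 0.05, all negative, against 18.8% of all. Snhg1 1433675_at came nearest, with -2.37 ± 0.64 (limma, adjusted p = 0.0579), and Gas5 1449410_a_at had -1.80 ± 0.66 (limma, adjusted p = 0.15). Without the second knockout tBuHQ unfractionated array, which leaves the one that stood apart, 4 passed: Snhg1 1433674_a_at and 1433675_at, Snhg8 and Gas5 1449410_a_at, with differences of -2.81 to -1.89 and adjusted p of 0.0273 to 0.0452 in limma, and 6.74% of all probe sets passed. Without either wild-type tBuHQ polysome array Snhg1 1433675_at was the one member probe set that passed (limma, adjusted p = 0.0280 and 0.0285), with 6.52% and 6.55% of all. In polysome RNA 0 of 28 passed, against 0% of all, and 4 had an unadjusted p under 0.05, all positive, against 4.71% of all. Without the first wild-type tBuHQ polysome array 2 Malat1 probe sets passed there (3.42 and 3.56, limma, adjusted p = 0.0394 and 0.0315), with 2.5% of all probe sets.

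Other genes of the same pathways were counted for the fraction difference, beside the median of -0.01 over all probe sets. Of the other noncoding snoRNA hosts 10 of 15 were tested, all 10 were below 0, their median was -0.51 and 3 were at or under -1. Zfas1, a host of C/D snoRNAs, read 6.45 to 42.1 on polysome and 64 to 246 on unfractionated arrays (-1.71 ± 0.19). Snhg4 had -1.19 ± 0.23, Snhg5 -1.06 ± 0.22 and Dancr -0.92 ± 0.21. Of the protein-coding hosts 20 of 35 were tested, 18 were below 0, their median was -0.85 and 7 were at or under -1. The lowest were Eef1b2, a subunit of a translation elongation factor (-1.85 ± 0.11), and the ribosomal protein genes Rps20 (-1.75 ± 0.17), Rps2 (-1.37 ± 0.09) and Rpl37 (-1.26 ± 0.28). Eef1b2 read 980 to 1438 on polysome and 3356 to 4972 on unfractionated arrays, so transcripts that do encode proteins had differences of this sign as well.

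Genes of proteins that work with these RNAs had medians nearer to 0. Of 11 tested genes for snoRNP proteins, which bind and mature snoRNAs, the median was -0.21 and 0 were at or under -1. Nop56, a core C/D protein, had -0.73 ± 0.14 and Gar1, a core H/ACA protein, -0.67 ± 0.14. Of 8 paraspeckle protein genes the median was -0.25 and 0 reached -1, with Hnrnph3 the lowest at -0.81 ± 0.12. The 9 nonsense-mediated decay factors had a median of 0.14, and Smg1, the kinase that phosphorylates UPF1, had 0.58 ± 0.21. The 11 imprinted genes had a median of 0.12, with Mest the lowest at -0.87 ± 0.15. The 10 other noncoding RNAs had a median of -0.43. Among them Firre, a nuclear RNA, had -1.24 ± 0.19, Norad, a largely cytoplasmic one that binds Pumilio proteins, -0.75 ± 0.13, and Kcnq1ot1, a nuclear imprinted antisense RNA, 0.78 ± 0.16. The value of Firre is a lower bound, since its polysome median of 12.1 lay below the absent level. Kcnq1ot1 read 13.1 to 43.5 on polysome and 1.65 to 17.1 on unfractionated arrays, so this RNA, near the background, was higher in polysomes.

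**Figure D4:**
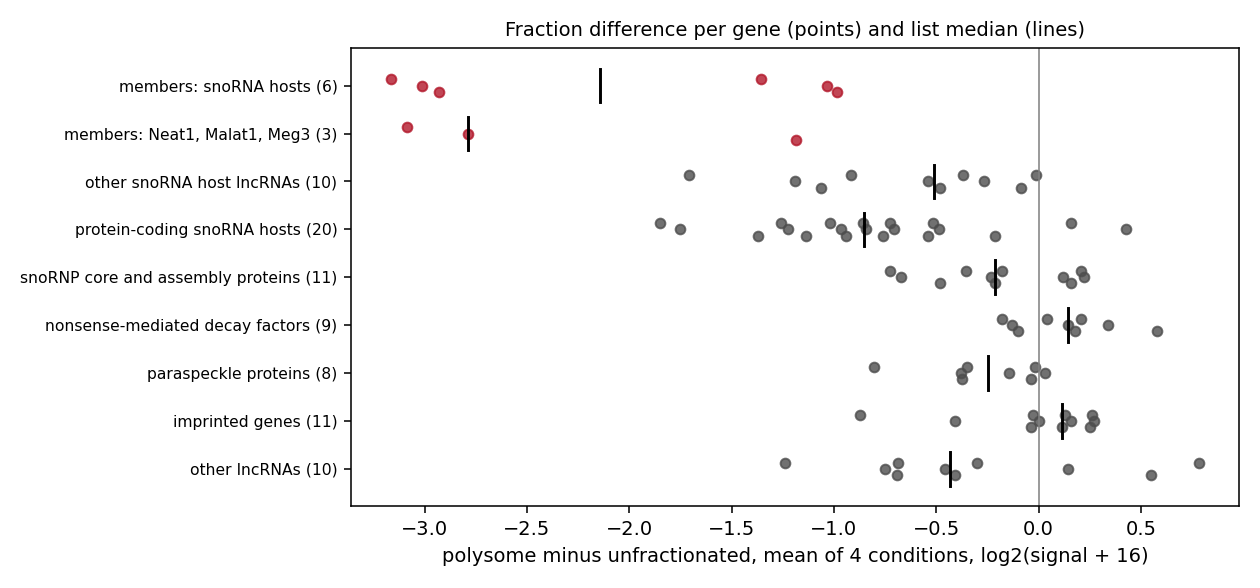
Polysome minus unfractionated difference, mean of 4 conditions on the log2(signal + 16) scale, of each gene (points, brightest probe set) in the listed genes and 7 companion lists, with the list's median as a black line and the number of genes in brackets. The listed hosts and nuclear RNAs, chosen for this difference, have the lowest medians. The median is -0.85 for the protein-coding hosts, -0.51 for the other noncoding hosts and -0.43 for the other noncoding RNAs, and the remaining 4 run from -0.25 to 0.14. Several other noncoding hosts are dim, with unfractionated medians of 20.0 for Snhg7 and 26.5 for Dancr. The scale understates such differences, so that list is not ranked against the brighter ones.

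In the 10 treatment and genotype contrasts 2 of the 77 tested genes of these 7 lists passed, each in 1 contrast. Taf1d, a protein-coding snoRNA host, had a difference of tBuHQ effects between the genotypes of -1.79 ± 0.44 in unfractionated RNA (limma, adjusted p = 0.0401), where 3.09% of all probe sets passed. Rbm8a, a component of the exon junction complex, was higher in untreated knockout than in untreated wild-type unfractionated RNA by 0.93 ± 0.23 (limma, adjusted p = 0.0370), where 3.99% of all passed. Both contrasts use arrays that stood apart.

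Finally, the genes whose profile over the 16 arrays was most like that of the listed RNAs were picked by Pearson's r among 13394 genes, as a description. To the mean profile of the 6 snoRNA hosts the nearest were 2310010J17Rik (r = 0.988), Bola3 (0.979), Tmem134 (0.973), Rps19 (0.969) and 2410006H16Rik (0.967). Bola3, which acts in iron-sulfur cluster assembly in mitochondria, read 218 to 1061 on polysome and 1395 to 3032 on unfractionated arrays. To the mean profile of Neat1 and Malat1 the nearest were Spop (0.966), Alox5ap (0.953), Rbms2 (0.950), Fth1 (0.943) and Rpsa (0.937). Fth1, the ferritin heavy chain, read 4763 to 6823 on polysome and 13296 to 19096 on unfractionated arrays. The points of each correlation fall into the 2 fractions, so these values mostly say that the gene separates the fractions the same way.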

How the data were processed

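RNA of perfused mouse liver was measured on 16 Affymetrix arrays in 8 groups of 2. The deposited values are signal intensity per probe set on a linear scale, which the authors had scaled to the same trimmed mean on every array, as the values show. The sources used here name no summarisation software and hold no detection calls. A deposited z score table of the authors, with 18697 probe sets, was used only to check labels: its 16 columns matched arrays with titles of the opposite treatment (largest residual 0.00368 on the log10 scale), and 4 carried the other replicate number.

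Names came from the platform annotation, which gave 34958 probe sets 1 symbol, 932 several and 9211 none, with 34754 symbols updated through Entrez identifiers. The 64 control probe sets were left out. Signals were turned to log2(signal + 16), and a mean of at least the 40th percentile (12.3) was required. limma 3.58.1 in R 4.3.3 (lmFit, eBayes with an intensity trend) fitted 8 group means to all 16 arrays, with 8 residual and 7.49 prior degrees of freedom and Benjamini-Hochberg adjustment over 27022 probe sets. The scripts were tested on simulated data. The p-values reflect the spread between arrays alone, and the number of arrays limits the precision. The sources used here name no batch and do not say whether the fractions share livers.

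The listed genes, the companion lists and the naming rules were chosen with earlier results of these data known. All member probe sets are accounted for, and up to 4 genes of a companion list were named by the size of their difference. For a gene with several probe sets the one with the highest mean was kept where 1 value per gene is given. Replicate numbers were not taken to pair arrays across treatments or genotypes: the correlation of the difference between the 2 arrays of a group with that of another group was -0.22 to 0.08 between treatments and -0.20 to 0.10 between genotypes. Between the fractions of a condition it was 0.07 to 0.26, so the fractions were also fitted with a random block. Alternatives were other pseudocounts, no filter, quantile normalization, 1 probe set per gene, blocks, no trend, and leaving out arrays.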

Additional observations from a re-analysis of the deposited data

How the results depend on the processing

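With 2 arrays a group, only large differences can pass, and the 3 unfractionated arrays that stood apart touch every contrast of untreated wild-type unfractionated RNA. For the brightest probe set of each of the 9 genes, no fraction difference averaged over conditions reversed its direction under the alternatives run. The same held for the member treatment and genotype differences with an unadjusted p under 0.05 in limma. The directions of the other named differences, those of the companion genes among them, were not followed through the alternatives. Of 144 values of the fraction difference per gene and condition, each without 1 of its arrays, 1 changed sign: Snhg1 in untreated wild-type liver, at 0.57, became -0.08 without replicate 1 of its polysome arrays. The count of 18 member probe sets at or under -1 became 9 with a pseudocount of 64, was 8 of 9 genes with 1 probe set per gene, and was 17 to 20 when arrays were left out in turn. Of all probe sets, 239 of 27022 lay there with a pseudocount of 64, and 167 of 13403 with 1 probe set per gene. The fraction differences of single genes kept their sign under all alternatives, from -3.44 to -2.57 for Snhg8, -3.53 to -2.17 for Snhg6, -3.28 to -2.63 for Neat1, -3.13 to -2.62 for Gas5, -3.15 to -2.34 for Malat1, -1.99 to -0.73 for Snhg12, -1.83 to -0.47 for Snhg3, -1.5 to -0.74 for Meg3 and -1.17 to -0.67 for Snhg1. The values for the ends that moved most came from pseudocounts of 1 and 64.

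With a pseudocount of 64, 1 member probe set (Snhg1 1433675_at) passed between untreated knockout and wild-type unfractionated RNA (adjusted p = 0.0326 in limma) and 1, the same, in the difference of tBuHQ effects (0.0309). Quantile normalization over all arrays gave 1 there too (0.0482). Of all 27022 probe sets, 79 passed as higher and 1087 as lower between these genotypes with a pseudocount of 64. For the difference of effects 807 passed as higher and 60 as lower, and with the quantile normalization 466 and 59. Leaving out arrays in turn gave 0 to 2 calls for tBuHQ in wild-type polysomes, 0 to 2 between untreated unfractionated genotypes, 0 to 3 between tBuHQ-treated polysomes, 0 to 4 and 0 to 2 for the difference of effects in unfractionated and polysome RNA, and 0 in the other 5 contrasts. Over the whole table the calls also moved, from 600 to between 1 and 1365 for tBuHQ in wild-type unfractionated RNA, from 1079 to between 0 and 2120 between untreated unfractionated genotypes, and from 836 to between 0 and 1821 for the difference of effects there. In polysome RNA they moved from 2 to between 0 and 1027 for tBuHQ in wild-type liver, from 1 to between 0 and 1190 between tBuHQ-treated genotypes and from 0 to between 0 and 675 for the difference of effects, each highest without replicate 1 of tBuHQ-treated wild-type polysome RNA. In unfractionated RNA the lowest counts were those without replicate 2 of untreated wild-type unfractionated RNA, and between the genotypes also those without its replicate 1 or without replicate 2 of untreated knockout unfractionated RNA. The replicate block, a number not taken to pair the arrays, gave 0 calls in each of the 10 contrasts and left the count of 18 as it was. The random block over fractions did the same. Without the 3 arrays that stood apart, the contrasts with untreated wild-type unfractionated RNA could not be fitted, and the others gave 0 calls.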

Other observations

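Repeat and ribosomal RNA, outside the gene lists, was read by control probe sets of the array. The control probe set for the murine B1 repeat read 85.8 to 132 on polysome arrays and 593 to 1112 on unfractionated arrays, without overlap. That for the B2 repeat read 11103 to 16510 and 15163 to 22257, with overlap. A control probe set for the 3' part of 18S ribosomal RNA read 22.5 to 49.9 on polysome arrays and 64.3 to 119 on unfractionated arrays. That for its middle part read 14.3 to 44.2 and 54.4 to 131. The fractions overlapped for its 5' part, at 2.17 to 47.4 and 40.7 to 153. B1 and B2 are short interspersed repeats that also lie in introns and untranslated regions of other transcripts. These probe sets were not tested.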
